A study of Mus musculus with 4 samples.

Results

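Chromatin accessibility at genes of DNA replication, DNA repair and the p53 response was examined in long-term hematopoietic stem cells (LT-HSCs) with and without Sin3B. The genes were 47 named members, and their peaks were the rows of the deposited table of differential peaks that carried a member's gene name. This gave 12 peaks at 10 of the 47 genes, out of 5332 peaks in the table. The other 37 members had no deposited differential peak under their own name. Genes with a row made up 21.3% of the members, beside 15.7% of the 21924 protein-coding genes of the GENCODE M21 annotation.

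The assay was ATAC-Seq, in which a transposase inserts sequencing adapters into DNA that is not packed in nucleosomes. There were 2 Sin3B+/+ libraries, labelled WT, and 2 Sin3B-/- libraries, labelled 3BKO. Each library held LT-HSCs sorted from the marrow of 2 untreated C57BL/6 mice as Lineage- Sca-1+ cKit+ Flk2- CD48- CD150+ cells, for 8 mice in all. The Sin3B-/- mice carried a floxed Sin3B allele and Vav1-iCre, which drives recombination throughout the hematopoietic system from fetal life onward, so the deletion was not confined to LT-HSCs. The controls are written both as Sin3B+/+ and as floxed mice in the study's text, and whether the controls of these libraries carried the floxed allele was not settled here. The age of these mice is not given in the sources used here. The amount of transposome was scaled to the number of cells obtained, and libraries were amplified for 12 PCR cycles. Sin3b itself had no row, so the deletion could not be checked in this table. Of 6 genes typical of LT-HSCs or of the sorting gate, Slamf1 and Procr had rows, with log2 fold changes of 0.73 to 0.93, and 0 of 9 genes of excluded cells had one. The absence of a row does not say that a site was closed, because only peaks with a differential call were analysed here.

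Each value below is a normalized read level, taken here as the reads in a peak multiplied by 1 factor per library, which was not established. The sum of these levels over the table was 1986378 in Sin3B+/+ replicate 1, 1657641 in replicate 2, 2837467 in Sin3B-/- replicate 1 and 3102888 in replicate 2. How deeply each library was sequenced in total is unknown here. Within each library the levels were whole multiples of 1 step, of 0.228 and 0.343 in Sin3B+/+ and of 0.625 and 1 in Sin3B-/-. Counted in steps, the member peaks ranged from 142 to 3694 in Sin3B+/+ replicate 1 and from 60 to 2105 in replicate 2, and from 108 to 1855 in Sin3B-/- replicate 1 and from 91 to 1182 in replicate 2. Steps also carry the difference in depth between libraries, so they cannot be compared between genotypes. The separation of the genotypes at the member peaks was seen in the scaled levels and not in steps. Separation in steps was not counted over all rows. Fold changes are log2 differences, Sin3B-/- minus Sin3B+/+, of the level plus a pseudocount of 1, so that 1 unit is a factor of 2. They were tested with limma across all 5332 peaks, with Benjamini-Hochberg adjustment and a threshold of 0.05. limma gave every peak the same standard error (SE) of 0.22 log2 units, so within the table the adjusted p followed the size of the fold alone. Every row had already been called for this contrast in the same libraries, so the adjusted p-values below are not independent support for any single peak.

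Replication begins at origins that are loaded with the MCM helicase in G1. Polymerase alpha with primase starts each strand, and polymerases delta and epsilon extend it behind a sliding clamp placed by replication factor C. Many of the genes that encode these proteins are transcribed at the transition into S phase under E2F factors and are kept silent in quiescent cells by repressor complexes of the DREAM type, with which Sin3B is known to act. LT-HSCs are mostly quiescent, and p53 is one of the factors that keep them so. DNA damage is signalled through the kinases Atm, Atr, Chek1 and Chek2 to p53, while Brca1 and the Fanconi proteins act in recombination repair.

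All 12 member peaks were higher in Sin3B-/- LT-HSCs in the limma test, and none was lower. Over the whole table, 95.7% of peaks were called higher and 4.29% lower, so a count of 12 of 12 lies near the background of a table that held only peaks selected for a difference. Both Sin3B-/- libraries lay above both Sin3B+/+ libraries at each of the 12 peaks, which was also the case for 95.7% of all rows. A larger share of cells with an open site and a more open site in each cell cannot be told apart in pooled cells. An exact permutation test of 2 libraries against 2 cannot give a p below 0.33. The log2 fold changes of the members ran from 0.53 to 1.69 with a median of 0.80, beside a median of 0.76 (interquartile range 0.63 to 0.97) over all rows. The fold was at least 1 log2 unit at 4 of the 12, beside 22.4% of all rows. These 4 were the Brca1 and Trp53 peaks and the distal peaks of Rfc3 and Pold1.

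**Figure D1:**
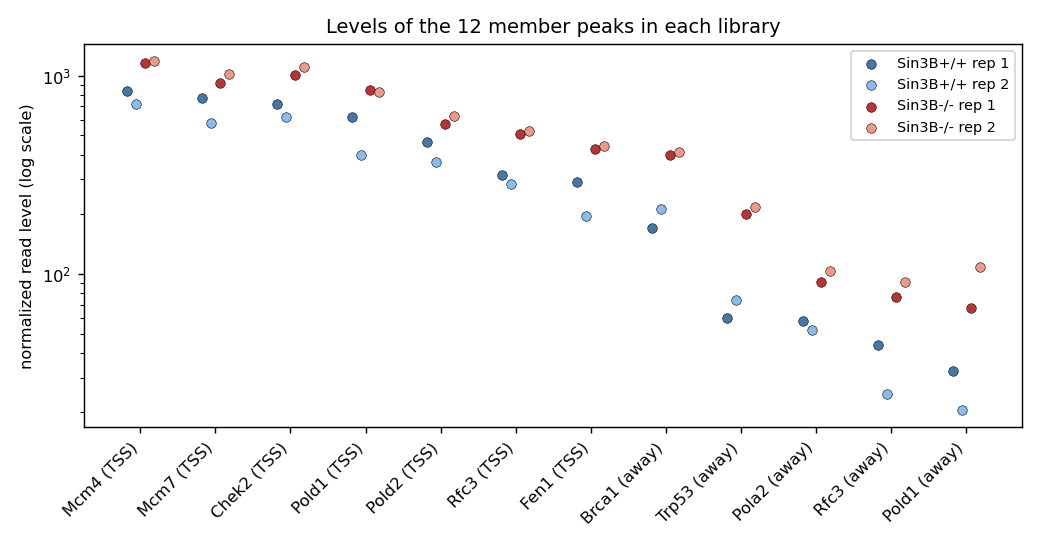
Normalized read level (log axis) of each member peak in the 2 Sin3B+/+ and the 2 Sin3B-/- libraries, 1 point per library, with peaks over the gene's own start marked TSS and the others marked away. The highest Sin3B+/+ point lies under the lowest Sin3B-/- point in all 12 columns, and the levels run from about 1182 at Mcm4 down to 20.6 at the distal Pold1 peak.

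The member peaks fell into peaks that covered the transcription start site (TSS) of their own gene and peaks that did not, and these differed in both level and fold. The 7 peaks over a TSS, at Mcm4, Mcm7, Chek2, Pold1, Pold2, Rfc3 and Fen1, had a median level of 674 and log2 fold changes of 0.53 to 0.86. The 5 peaks away from it, at Pola2, Brca1, Rfc3, Trp53 and Pold1, had a median level of 76.4 and log2 fold changes of 0.81 to 1.69. The same ordering was present in the table as a whole, where 1695 rows over a protein-coding TSS had a median log2 fold change of 0.65 at a median level of 660.1, and the 3637 others had one of 0.84 at a median level of 159.9. The G and C content was 57.2% to 62.1% in the TSS peaks of the members and 44.0% to 61.4% in the 5 others, where the distal Pold1 peak had the highest. This division was made after the values were seen, and no test was run on it.

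**Figure D2:**
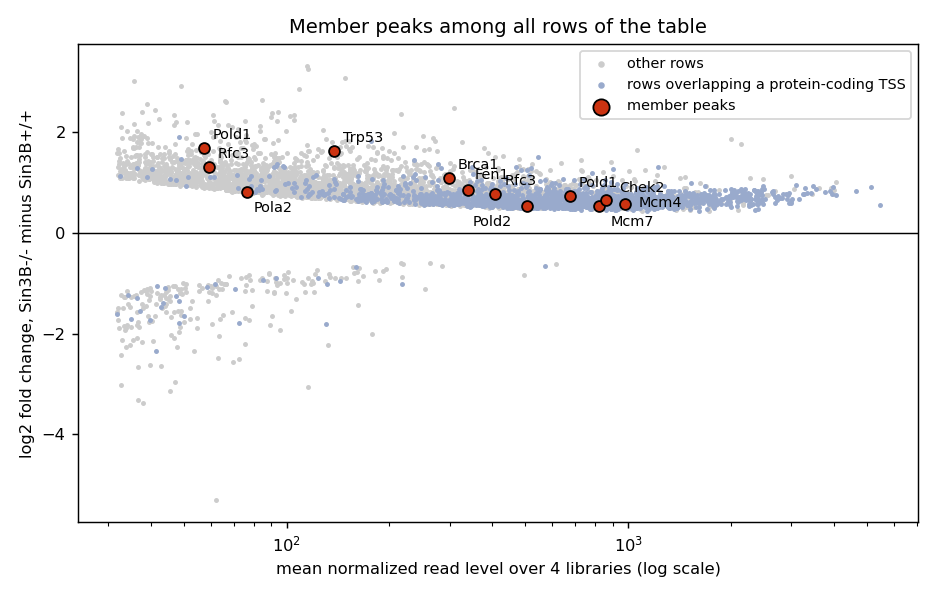
Log2 fold change against mean normalized read level over the 4 libraries (log axis) for all 5332 rows, with rows over a protein-coding TSS in blue and the 12 member peaks in red. The Pold1 peak at 1.69, the Trp53 peak at 1.64 and the distal Rfc3 peak at 1.32 lie among the low, distal rows, and the TSS peaks of Mcm7, Pold2 and Mcm4 lie near the lower edge of the rows that were called higher.

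The MCM helicase was represented by Mcm4 and Mcm7, 2 subunits of the hexamer that unwinds DNA ahead of the fork. The Mcm4 peak (chr16:15637030-15638144, GRCm38) had levels of 843 and 722 in Sin3B+/+ and of 1159 and 1182 in Sin3B-/- LT-HSCs. Its log2 fold change was 0.59 (SE 0.22, limma adjusted p = 0.0074). Mcm4 was the strongest of the member peaks by level, and its libraries of 1 genotype lay close together relative to the gap between genotypes. Without Sin3B-/- replicate 2 its fold was 0.57 and the call was lost. The Mcm7 peak (chr5:138171735-138172550) had levels of 775 and 580.0 in Sin3B+/+ and of 917 and 1022 in Sin3B-/-. Its log2 fold change of 0.53 (SE 0.22, limma adjusted p = 0.0145) was the smallest among the members, and 7.90% of all rows had a smaller one. Sin3B+/+ replicate 1 lay nearer to Sin3B-/- replicate 1 than to Sin3B+/+ replicate 2 at this peak. The loss of either Sin3B+/+ replicate 2 or Sin3B-/- replicate 2 ended the call at Mcm7, with values of 0.32 and 0.45. Mcm2, Mcm3, Mcm5 and Mcm6, the other subunits, and Mcm10, which helps activate the helicase, had no row.

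Both MCM peaks covered a start shared with a second gene on the opposite strand, and the table's gene name gives only 1 of the pair. The Mcm4 peak also covered the start of Prkdc, itself a member, which encodes the catalytic subunit of the DNA-dependent protein kinase of end joining. The Mcm7 peak also covered the start of Ap4m1. The Chek2 peak covered that of Hscb and the Fen1 peak that of Tmem258, so 4 of the 7 TSS peaks (57.1%) held protein-coding starts on both strands, beside 263 of 1695 such rows (15.5%) in the table. ATAC-Seq does not assign open chromatin at such a pair to one gene or the other.

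**Figure D3:**
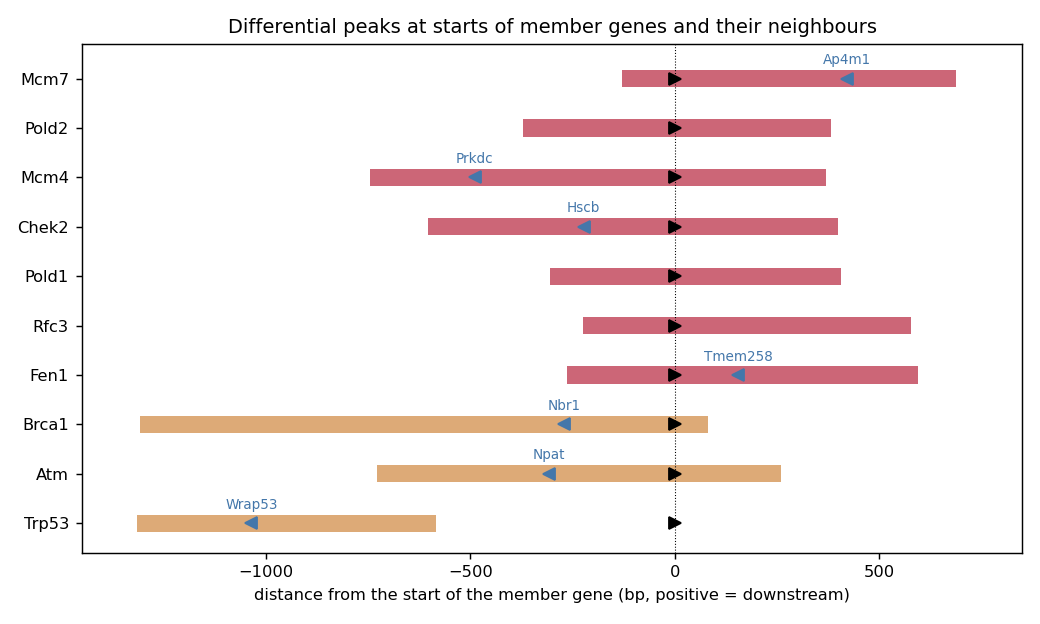
Position of differential peaks (bars) relative to the start of each member gene (black marks at 0, distance in bp, positive downstream), with neighbouring protein-coding starts as blue marks whose arrows give their direction relative to the member. Red bars are the 7 peaks named for the member and tan bars are peaks named for Nbr1, Npat and Wrap53. The bars at Brca1 and Atm also reach the member's own start, and that at Trp53 ends 584 bp short of it.

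The polymerases and primase had rows at 3 of 8 genes. Pold1, the catalytic subunit of polymerase delta, had 2 peaks. The peak over its start (chr7:44548440-44549152) had levels of 623 and 399.7 in Sin3B+/+ and of 843 and 829 in Sin3B-/-, with a log2 fold change of 0.74 (SE 0.22, limma adjusted p = 0.00097). The Sin3B+/+ libraries were far apart here, and without Sin3B+/+ replicate 2 the fold was 0.42 and the call was lost. The second Pold1 peak (chr7:44534195-44534653) lay over exons near the other end of the gene, 14423 bp from the start. Its levels were 32.4 and 20.6 in Sin3B+/+ (26.5 ± 8.37, SD, n = 2) and 67.5 and 108 in Sin3B-/- (87.7 ± 28.7, SD, n = 2). The log2 fold change of 1.69 (SE 0.22, limma adjusted p = 1.53e-13) was the largest among the members and exceeded that of 97.9% of all rows. Its levels came to only 60 to 142 steps per library, and its nearest TSS was that of Spib, at 2353 bp, so that the gene name does not settle which gene the site belongs to.

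Pold2, an accessory subunit of polymerase delta, had a peak over its start (chr11:5877909-5878663) with levels of 462 and 366 in Sin3B+/+ and of 572 and 625 in Sin3B-/-. The log2 fold change was 0.54 (SE 0.22, limma adjusted p = 0.0129). Without Sin3B+/+ replicate 2 it was 0.37 and without Sin3B-/- replicate 2 it was 0.47, and in both cases the call was lost. Pola2, the regulatory subunit that links polymerase alpha to primase, had no row at its start, but one upstream of it. Its levels were 58.2 and 52.1 in the Sin3B+/+ libraries, against 91.2 and 104 in Sin3B-/-, with a log2 fold change of 0.81 (SE 0.22, limma adjusted p = 0.00036). Replicates of each genotype were close at this low peak. Pola1, Prim1, Pold3, Pole and Pole2 had no row.

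The clamp, its loader and the enzymes that join Okazaki fragments had rows at 2 of 5 genes. Rfc3, a subunit of the clamp loader, had 2 peaks. The one over its start (chr5:151650665-151651466) had levels of 316 and 284 in Sin3B+/+ and of 507 and 526 in Sin3B-/-, with a log2 fold change of 0.78 (SE 0.22, limma adjusted p = 0.00054). The other (chr5:151642834-151643221) overlapped the last exon, 8215 bp from the start, with levels of 44.0 and 24.7 in Sin3B+/+ and of 76.85 and 91 in Sin3B-/-. Its log2 fold change was 1.32 (SE 0.22, limma adjusted p = 1.09e-08). At Rfc3 as at Pold1, the weak peak near the end of the gene had the larger fold and the strong peak at the start the smaller one. Fen1, the flap endonuclease that trims Okazaki fragments, had a peak over its start (chr19:10203575-10204433) with levels of 291 and 196 in Sin3B+/+ and of 425 and 444 in Sin3B-/-. The log2 fold change was 0.86 (SE 0.22, limma adjusted p = 0.00016), the largest among the TSS peaks of the members. Pcna, the clamp, Rfc1, the large subunit of its loader, and Lig1, the ligase, had no row, and the nearest row to the Pcna start was 324211 bp away.

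None of the origin licensing members (Orc1, Orc2, Cdt1, Gmnn), the nucleotide synthesis members (Rrm1, Rrm2, Tyms), the single-strand binding subunits (Rpa1, Rpa2) or the end joining members with Parp1 (Xrcc5, Xrcc6, Prkdc, Parp1) had a row named for them. Cdt1, Orc1, Rrm2 and Tyms are known E2F targets at the entry into S phase.

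Chek2, the checkpoint kinase that is activated by Atm after DNA breaks, had a peak over its start (chr5:110839397-110840400). Its levels were 721 and 618 in the Sin3B+/+ libraries, against 1007 and 1108 in Sin3B-/-, with a log2 fold change of 0.66 (SE 0.22, limma adjusted p = 0.0029). Without Sin3B-/- replicate 2 the value was 0.59 and the call was lost. Atm, Atr, Chek1 and Trp53bp1 had no row named for them. The bases between the Hscb start and the Chek2 start, on opposite strands, are shown on the plus strand (GRCm38, RefSeq, chr5:110839778-110839999) because they hold 2 matches to an E2F core and 2 CCAAT boxes, which are in capitals, with matches to the other strand written as ATTGG or GCGGGAAA.
Hscb to Chek2: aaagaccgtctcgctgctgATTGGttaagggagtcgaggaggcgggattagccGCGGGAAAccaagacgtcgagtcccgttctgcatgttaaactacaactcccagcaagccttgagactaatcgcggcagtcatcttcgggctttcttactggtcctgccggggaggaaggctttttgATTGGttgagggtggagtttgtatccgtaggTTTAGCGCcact

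Brca1, which acts in homologous recombination and in checkpoint control, had 1 row under its name, a site beyond the end of the gene (chr11:101485404-101486091), 66132 bp from its start. Levels were 170.0 and 211 in Sin3B+/+ (191 ± 29.3, SD, n = 2) and 399 and 413 in Sin3B-/- (406 ± 9.72, SD, n = 2). The log2 fold change was 1.09 (SE 0.22, limma adjusted p = 1.87e-06). The fold kept to 0.94 to 1.25 when any 1 library was left out. The nearest annotated start was that of Gm11625, at 9521 bp. The start of Brca1 was covered by a stronger peak that the table names Nbr1, for the gene on the opposite strand (chr11:101551798-101553187), with levels of 1687 and 1347 in Sin3B+/+ and of 2430 and 2813 in Sin3B-/- and a log2 fold change of 0.79 (SE 0.22, limma adjusted p = 0.00046). Brca2, Fanca and Fancd2 had no row.

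In the p53 axis, Trp53 alone had a row, and it was among the 3 largest folds of the members. The peak (chr11:69585784-69586193) lay in intron 1, 5583 bp downstream of the Trp53 start. Levels were 59.8 and 73.7 in Sin3B+/+ (66.7 ± 9.84, SD, n = 2) and 199.9 and 218 in Sin3B-/- (209 ± 12.8, SD, n = 2). Both Sin3B-/- libraries stood well above both Sin3B+/+ libraries, which were close to each other. The log2 fold change was 1.64 (SE 0.22, limma adjusted p = 7.84e-13), larger than that of 97.6% of all rows, and it stayed between 1.49 and 1.79 when any 1 library was left out. The central 300 bases of the peak are shown on the plus strand, that of the gene (GRCm38, RefSeq, chr11:69585839-69586138), because this was the member peak whose call held under both scalings with replicates close together. The capitals mark a CCAAT box on the other strand, and no E2F core, CHR element (TTTGAA) or p53 site matched in them.
Trp53 intron 1 peak: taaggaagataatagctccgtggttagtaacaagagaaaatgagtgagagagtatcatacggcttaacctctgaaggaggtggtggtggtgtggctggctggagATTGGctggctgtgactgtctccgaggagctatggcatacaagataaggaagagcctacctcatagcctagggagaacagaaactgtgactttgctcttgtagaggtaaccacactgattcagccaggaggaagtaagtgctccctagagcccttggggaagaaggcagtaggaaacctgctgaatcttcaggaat
Mdm2 and Mdm4, which restrain p53, and Bax and Bbc3, which are p53 targets in cell death, had no row. The nearest row to the Bax start was 5555 bp away, and those nearest to Bbc3 and Mdm4 were 13886 bp and 14000 bp away.

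Some starts of members were covered by, or lay close to, rows with another gene's name, which were looked up after the positions were seen. Besides the Nbr1 peak at Brca1, the Npat peak (chr9:53536481-53537469) covered the starts of both Npat and Atm. Its levels were 1008 and 749 in the Sin3B+/+ libraries, against 1226 and 1322 in Sin3B-/-, with a log2 fold change of 0.55 (SE 0.22, limma adjusted p = 0.0112). The Wrap53 peak (chr11:69579043-69579775) ended 584 bp from the Trp53 start, on the side of the divergent gene Wrap53, and had a log2 fold change of 0.56 (SE 0.22, limma adjusted p = 0.0097), far below the 1.64 of the intron peak. A weak peak named Desi1 (chr15:82022487-82022986) lay inside the annotated span of Xrcc6, a subunit of the Ku end-binding complex, with a log2 fold change of 1.35 (SE 0.22, limma adjusted p = 4.24e-09). When each library was centred on its own median over the table, none of these 4 rows was called, with log2 values of 0.04 at Nbr1, -0.20 at Npat, -0.19 at Wrap53 and 0.60 at Desi1. The Npat call was also lost without Sin3B+/+ replicate 2 (0.34) or Sin3B-/- replicate 2 (0.50), and the Wrap53 call without any of Sin3B+/+ replicate 2 (0.41), Sin3B-/- replicate 1 (0.54) and Sin3B-/- replicate 2 (0.58). Of the 37 members without a row of their own, 34 had no row inside the gene or within 1000 bp of its start. For these 34, the distance from the start to the nearest row had a median of 100780.5 bp and reached 450746 bp at Mcm10. The exceptions were Prkdc, Atm and Xrcc6.

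The fold changes of the members depended on the scaling of the libraries in the same way. With the libraries centred, 0.75 log2 units were removed from every fold, and 7.01% of all rows were called higher and 4.29% lower. Of the members, 2 of 12 were then called higher and none lower. The Trp53 peak kept a log2 fold change of 0.89 (SE 0.18, limma adjusted p = 0.0156) and the distal Pold1 peak one of 0.93 (SE 0.21, limma adjusted p = 0.0233). The distal Rfc3 peak was at 0.56 (limma adjusted p = 0.111) and the Brca1 peak at 0.34 (limma adjusted p = 0.352). The 7 TSS peaks lay between -0.22 and 0.11, of which 5 were negative, and none was called. Of all 1695 rows over a protein-coding TSS, 1295 were negative after centring, 18 were called higher and 28 lower. Relative to the other rows of the table, no change at these 7 starts passed the threshold. The sign turned at Mcm7, Pold2, Mcm4, Chek2 and the Pold1 TSS peak, whose folds lay below the shift removed. Over all 5332 rows, 2621 were negative after centring, beside 229 called lower before it. Such a count follows largely from centring on the median of these same rows. Peaks outside the table were not analysed here, so neither scaling could be set against unchanged sites, and the part of the scaling in the deposited shift was not tested.

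**Figure D4:**
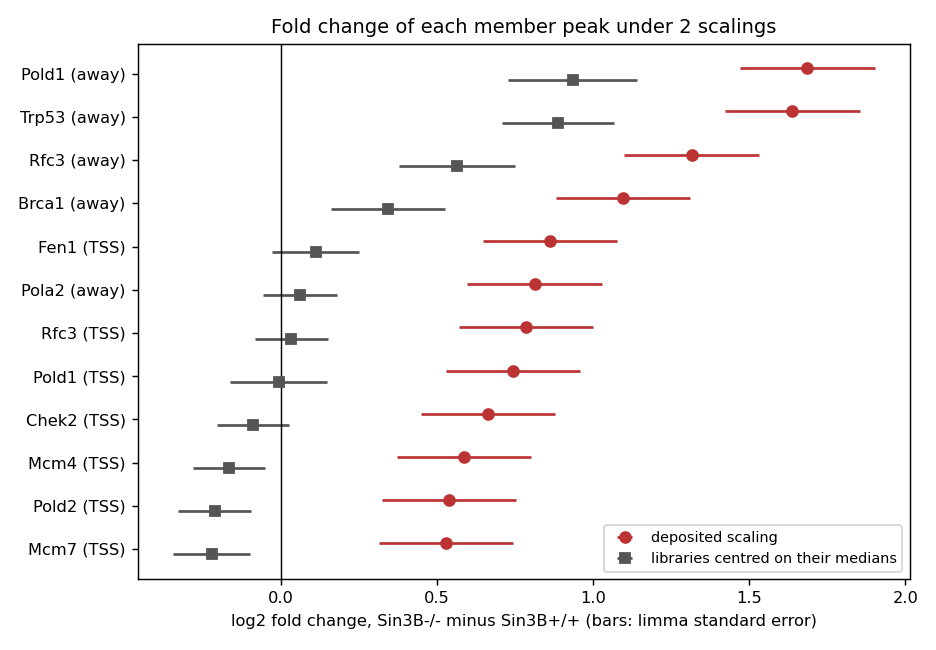
Log2 fold change of each member peak with the deposited scaling (red circles) and with each library centred on its median over the table (grey squares), with bars of 1 limma standard error. All 12 red circles lie to the right of 0, and after centring only the Trp53 peak at 0.89 and the away peak of Pold1 at 0.93 remained past the threshold.

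Promoter sequence was examined next, since E2F sites are common at genes of this kind. The E2F core TTTNNCGC, searched on both strands, occurred in the central 300 bases of 5 of the 12 member peaks, all of them TSS peaks, beside 5.42% of all rows and 8.95% of rows at promoters. The 5 were Mcm4, Mcm7, Chek2, Pold1 and Rfc3. The same 5 matched when whole peaks were searched, beside 12.4% of all rows. In promoters taken from RefSeq, of 300 bases each, 17 of the 42 member genes with an entry (40.5%) held the core, beside 5.93% of all genes. It was in 4 of 9 promoters of members with a row and in 13 of 33 of members without, among them Orc1, Cdt1, Mcm3, Mcm5, Mcm6, Tyms and Brca2. No test was run on these shares. Mcm4, Prkdc, Gmnn, Pole and Fancd2 had no entry in the promoter table used.

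The E2F matches are printed because the TSS peaks that hold them are among those whose sign or call changed with the scaling. Each line gives 30 bases 5′ to 3′ on the strand of the match (GRCm38, RefSeq), with the core in capitals, and the Mcm4 peak held 3 further matches that are not printed.
Mcm7, chr5:138171849-138171878, minus strand: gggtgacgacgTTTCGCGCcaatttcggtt
Mcm7, chr5:138172030-138172059, plus strand: tggacaccctgTTTCCCGCggttcgaaatt
Rfc3, chr5:151651190-151651219, plus strand: gacagtagagtTTTCCCGCgagcgcgaaag
Rfc3, chr5:151651200-151651229, minus strand: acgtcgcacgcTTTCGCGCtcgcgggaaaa
Pold1, chr7:44548758-44548787, plus strand: ctcaaacagctTTTCCCGCcacaagatacg
Chek2, chr5:110839820-110839849, minus strand: cgacgtcttggTTTCCCGCggctaatcccg
Chek2, chr5:110839977-110840006, plus strand: gtatccgtaggTTTAGCGCcactccactgg
Of these 7 cores, 4 read TTTCCCGC, 2 read TTTCGCGC and 1 reads TTTAGCGC, and the 30-base windows of the Rfc3 pair overlap. The matches at Rfc3, Pold1 and Mcm7 lay in exons annotated as untranslated, and those at Chek2 outside the exons of the basic annotation.

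CCAAT boxes were in the central 300 bases of 6 of the 12 member peaks, beside 35.5% of all rows and 50.1% of rows at promoters, and in the promoters of 27 of the 42 genes (64.3%), beside 41.1% of all genes. The CHR element TTTGAA, which the DREAM complex also uses, was in none of the 12 central windows, beside 13.6% of all rows. It was in 1 whole peak, that of Brca1, beside 32.0% of all rows searched whole. An NRF1 site matched in no central window of the members and in the whole peak of Mcm4 alone. Over all rows it matched in 2.33% of central windows and 5.05% of whole peaks. A CTCF site matched in the central window of 1 of the 12, beside 4.29% of all rows. The p53 site matched in no member peak, and in 0.0375% of all central windows and 0.244% of all whole peaks. Peaks whose centre lay at most 1000 bp before or 100 bp after a TSS made up 6 of the 12 member peaks (50.0%, 95% Wilson interval 25.4% to 74.6%, counting error only), beside 33.3% of all rows.

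Other genes of these pathways were counted in the same way. Of 51 further replication genes, 14 had rows, and all 15 of their peaks were higher in Sin3B-/- LT-HSCs, with a median log2 fold change of 0.65. The folds of at least 1 were at Rfc2 (1.71), a clamp loader subunit, Top2b (1.13), a topoisomerase, and Atad5 (1.10), which unloads the clamp. Of 81 further repair genes, 26 had 32 peaks, all higher, with a median of 0.86. The largest folds were at Mdc1 (2.21 and 2.03), which binds marked histones at DNA breaks. Folds of at least 1 were also at Blm (1.35 and 1.02), Ercc6 (1.25), Neil3 (1.21), Smc5 (1.15), Rad9a (1.08) and Pms2 (1.06). Of 42 further p53 regulators and targets, 10 had 14 peaks, all higher, with a median of 0.71 and folds of at least 1 at Tnfrsf10b (1.77 and 1.49), a death receptor, Kat5 (1.69), an acetyltransferase, and Mcl1 (1.01). Counts of this kind again lie near the 95.7% of all rows. After centring, 1 of the 15, 3 of the 32 and 3 of the 14 peaks were called higher, at Rfc2, Mdc1, Ercc6, Tnfrsf10b and Kat5, and none lower. Over all rows, 7.01% were then called higher and 4.29% lower.

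**Figure D5:**
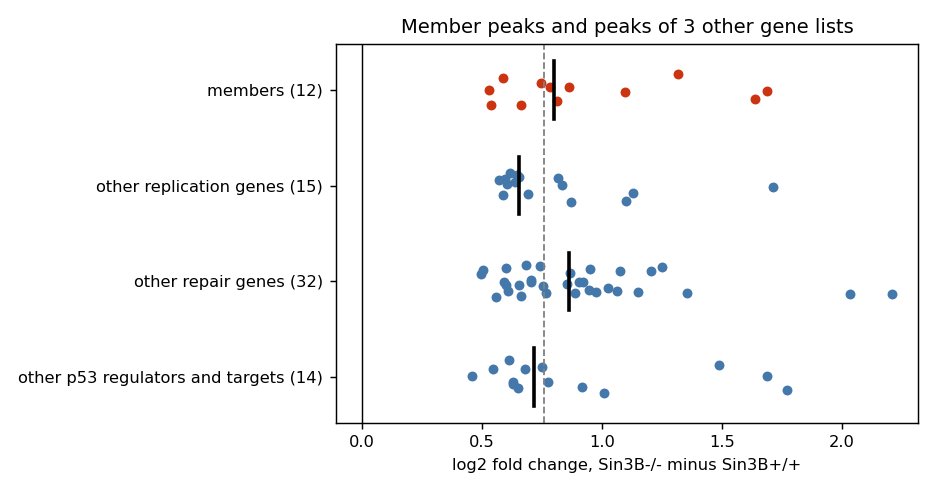
Log2 fold change of each peak, 1 point per peak, for the 12 member peaks and for 15 peaks of other replication genes, 32 of other repair genes and 14 of other p53 regulators and targets, with black bars at the list medians of 0.80, 0.65, 0.86 and 0.71. The dashed line is the median of all 5332 rows, 0.76, and no point of the 4 lists lies under 0.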

How the data were processed

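ATAC-Seq reads were processed by the authors, who used bowtie2 for alignment, sambamba against duplicates and MACS2 for peaks after trimming, and tested a common peak set in DiffBind with DESeq2. The submitters' processing notes list FastQC, Trimmomatic, Bowtie2, deepTools, MACS2, DiffBind, DESeq2 and HOMER, and no versions are given in the sources used here. The deposited table held only peaks with a differential call and gave, per library, a signal, taken here as read numbers in each peak after scaling by 1 factor. Its columns of fold, p-value, FDR and group levels are the authors' own comparison and were not used. Groups and replicate numbers came from the sample labels. 

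Levels were compared as log2(level + 1) with limma (2 against 2 libraries, all 5332 rows, no replicate block, Benjamini-Hochberg threshold 0.05). Its prior degrees of freedom were infinite, so the SE was common to all peaks. The p-values of this fit rest on a spread between libraries shared by all rows, not on the spread between pools of mice at a given peak. The script was tested on simulated data. The notes name mm9, but 5330 of 5332 gene identifiers were found in GENCODE M21, 96.6% with the same gene start and end, and 40.8% of peaks were centred within 1000 bp of a TSS, beside 7.50% after a move of 50000 bp, so coordinates were read as GRCm38 (mm10). Starts, exons and sites came from the GENCODE M21 basic transcripts and sequence from the RefSeq GRCm38 genome and promoter table.

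The members, their role groups and the 3 further lists were chosen with earlier results of these data known. The naming rule asked for levels of promoter peaks, the largest and smallest folds and all peaks of genes with 2, and in effect covered all 12 peaks. It asked for the sequence of the promoter peak with the largest fold in each role group. The sequences printed, the division into TSS and other peaks, the 300-base windows, the rows named for neighbours and the letters of the CTCF, NRF1 and p53 patterns were instead chosen after values and sequences were seen. Alternatives were other pseudocounts, a level filter, centring, a replicate block, a fold minimum, assignment by nearest TSS and each library left out. Software was R 4.3.3, limma 3.58.1, Python 3.11.15, numpy 2.4.6, pandas 2.3.3, scipy 1.17.1, matplotlib 3.10.9, pysam 0.24.0 and samtools 1.23.1. Single-cell data of the series were not used here, and the position and sequence of 1 member peak are not reported here.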

Additional observations from a re-analysis of the deposited data

How the results depend on the processing

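Centring each library on its median changed most: the number of member peaks called higher fell from 12 to 2, their median log2 fold change from 0.80 to 0.046, and the sign turned at Mcm7 (-0.22), Pold2 (-0.21), Mcm4 (-0.17), Chek2 (-0.090) and the Pold1 TSS peak (-0.0088). Over all 5332 rows, 2621 were negative after centring, beside 229 called lower before it, and 7.01% were called higher. The number of negative rows follows largely from centring on the median of these same rows. A minimum of 1 log2 unit left 4 of 12, beside 22.4% of all rows. With each library left out in turn, the median log2 fold change of the member peaks was 0.64 to 0.91, and every fold stayed above 0. The lone library of a genotype was then assumed to vary like the others. Calls were lost at Mcm7, Pold2 and the Pold1 TSS peak without Sin3B+/+ replicate 2, and at Mcm7, Pold2, Mcm4 and Chek2 without Sin3B-/- replicate 2. The share of all rows that lost a call in these fits was not counted, so the losses cannot be read as particular to the members.

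These libraries came from different mice, and the sources used here do not say whether replicate numbers pair them by day or batch. With the replicate block 12 of 12 member peaks were called, as with the crossed pairing, which was added after the data were seen because deviations of same-numbered libraries had a correlation of -0.101. In all, 103 of 120 settings of single member peaks kept sign and call, 12 kept the sign and lost the call, and 5 turned. With peaks assigned by nearest TSS there were 8 member peaks, all called higher, with a median of 0.76, beside 95.7% of all rows called higher. Pseudocounts of 0.5 and 5 gave 12 calls each, and the filter on a mean level of 20 removed no row. The share of all rows called was not counted for the crossed pairing or for these pseudocounts. Promoters taken as 1000 bp on either side of a TSS held 58.3% of member peaks, beside 40.8% of all rows. The planned edgeR and DESeq2 tests were not run, because it was not established that the steps of the levels are single reads.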
